A study of Mus musculus with 6 samples.

Results

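Binding of COUP-TFII, the nuclear receptor encoded by Nr2f2, was mapped by chromatin immunoprecipitation and sequencing (ChIP-seq) and examined at 10 genes of insulin-like growth factor (IGF) and epidermal growth factor (EGF) signalling: Igf1, Igf1r, Igf2, Igf2r, Igfbp2, Igfbp3, Igfbp4, Igfbp5, Egf and Egfr. A peak was given to 1 of these genes when its body was the nearest protein-coding RefSeq gene body within 100 kb of the peak's centre. Of 11175 peaks in the XX list and 9846 in the XY list, 6 and 10 belonged to these genes. Peaks of the XX and XY lists that overlapped by 1 bp or more were called shared, and a place is a shared pair or a peak of 1 list alone. The 10 genes had 11 places of 13538 in all.

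The chromatin was pooled from E14.5 mesonephroi of CD-1 mice, with 2 samples of COUP-TFII ChIP from XX and 2 from XY embryos and 2 samples of pooled XX and XY input. The authors deposited 1 peak list per sex over its 2 replicates, so replicate spread cannot be given, and comparisons are between 2 lists, not tests of sex. The labels' extraction protocol mentions fetal ovaries and RUNX1, but the titles, the tissue and antibody labels and the series' own design name COUP-TFII and mesonephroi, and these were followed. Each peak is an interval of 300 bp in mm10 without a height, score or p-value, and the sequencing depth behind the lists is unknown. The tissue holds many cell types, and its identity could not be checked against marker genes, since peak positions do not measure expression. An absent peak may be unbound DNA or a signal under the authors' threshold.

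The mesonephros lies beside the fetal gonad and holds the Wolffian and Müllerian ducts with their mesenchyme, in which COUP-TFII is abundant. IGF1 and IGF2 are secreted growth factors that signal through the IGF1 receptor, a tyrosine kinase. The IGF2 receptor binds IGF2 and carries it to lysosomes, and the IGF-binding proteins hold IGFs outside cells and lengthen or limit their action. EGF signals through another receptor tyrosine kinase, EGFR. Growth factors of both families pass between mesenchyme and epithelium in the developing reproductive tract, and Igf1 and Egf have been studied there as partners of androgen action in the Wolffian duct.

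COUP-TFII peaks were found at 6 of the 10 genes: Igf1, Igf1r, Igf2r, Igfbp4, Igfbp5 and Egf. Igf2, Igfbp2, Igfbp3 and Egfr had none in either list. Shared peaks were found at 3 genes, with 3 at Igf1, 1 at Igf1r and 1 at Igf2r. Igf2r also had 2 XY-only peaks, Igfbp4 and Egf had 1 XY-only peak each, and Igfbp5 had 1 XX-only and 1 XY-only peak.

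A peak in either list was thus present at 6 of 10 (95% exact interval 26.2% to 87.8%), against 42.0% of the 21887 protein-coding genes. For shared peaks the values were 3 of 10 (6.67% to 65.2%) against 28.2%, a share close to the background. In the XX list 4 of the 10 genes had a peak (36.9% of all genes), and in the XY list 6 did (35.0% of all genes). The median number of places per gene was 1 over these genes and 0 over all genes. These genes sit in long stretches: the sequence nearest to each ran from 27 kb at Igfbp4 to 379 kb at Igf1r, with a median over all genes of 45 kb. Per megabase of such sequence they had 7.13 places, and all genes had 6.64.

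Of the 11 places, 5 were shared, 5 were XY-only and 1 was XX-only. Over all places 55.3% were shared, 17.5% XY-only and 27.3% XX-only. Shared peaks were 5 of the 6 XX peaks at these genes (83.3%, 95% exact interval 35.9 to 99.6), where 67.0% of the whole XX list was shared, and 5 of the 10 XY peaks (18.7% to 81.3%), where the whole XY list had 76.0%. Both intervals include the share of the whole list, but they treat peaks as independent, and 3 of the 5 shared places were those of Igf1. They are therefore no test of a difference. XY-only peaks were found at 4 of the 10 genes (9.55% of all genes) and XX-only peaks at 1 (13.2% of all genes).

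**Figure D1:**
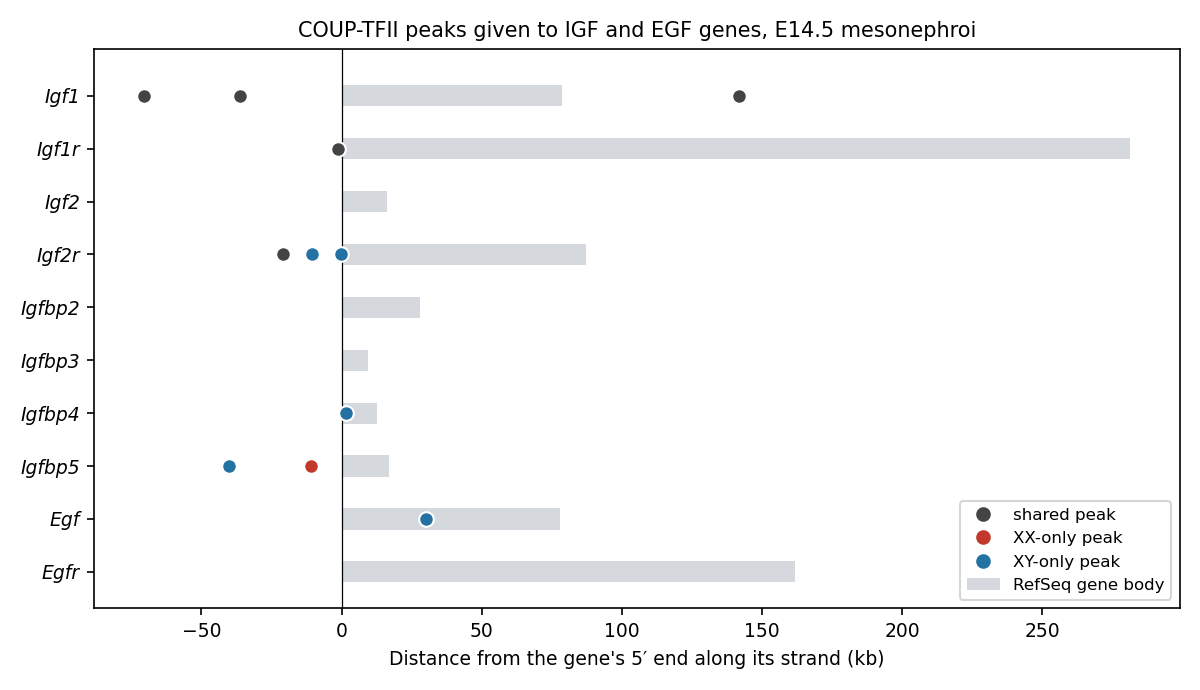
Positions of the 11 COUP-TFII peak places along each of the 10 genes, in kb from the outer 5′ end of the gene and oriented along its strand; grey bars are RefSeq gene bodies and the dot colour gives the list (shared, XX-only or XY-only). The 3 dots of Igf1 lie far outside the gene, those of Igf2r lie upstream, and 4 genes have no dot.

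Among the ligands, Igf1 had 3 shared peaks and no other. Igf1 (gene 16000, plus strand) spans chr10:87858265-87937047. Its first shared peak, at chr10:87787564-87787863 in the XX list and chr10:87787507-87787806 in the XY list, lay 70.6 kb upstream of the gene. The second, at chr10:87821913-87822212 and chr10:87821891-87822190, lay 36.2 kb upstream. The third, at chr10:87999947-88000246 and chr10:87999974-88000273, lay 63.0 kb (XX list) and 63.1 kb (XY list) beyond the 3′ end. The centres of the XX and XY peaks differed by 57, 22 and 27 bp, where the median over all shared peaks was 33 bp. Thus each Igf1 peak was found in both lists at nearly the same position, and none lay in the gene. That these peaks belong to Igf1 rests on the rule: Igf1 had 0 when only genes within 10 kb were allowed, and 0 when noncoding genes could take a peak.

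On the downstream side the next protein-coding gene was Pmch, the gene of a hypothalamic peptide precursor, which lay 91.0 kb from the third peak of the XX list, against 63.0 kb for Igf1. Noncoding genes lay nearer than Igf1 to all 3 peaks. The third was 32.1 kb from the transcribed pseudogene Tyms-ps in each list. On the upstream side the first peak lay inside the lncRNA gene Gm30073 and the second lay 4.69 kb (XX list) and 4.72 kb (XY list) from Igf1os, an lncRNA gene that runs across the Igf1 5′ end. The 3 Igf1 places spanned 212.7 kb, with 34.3 kb between the upstream centres.

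At least 3 shared peaks were rare, with 121 protein-coding genes (0.553%). Of these, 5 genes (4.13%) had every shared peak more than 10 kb outside the gene body: Igf1, Cpn2, Cyria, Tex48 and Wnt7b, named after their values were seen. Such shares over all genes are not matched for length, and Igf1 was looked at because it had the most shared peaks of the 10 genes. Per megabase of sequence nearest to it, Igf1 had 11.7 places, against 6.64 over all genes. Exactly 3 shared peaks with no XX-only or XY-only peak were found at 35 genes including Igf1 (0.160%). The 3 of them with the nearest length of sequence to the 256 kb of Igf1 were St8sia2 (255.5 kb), Lclat1 (250 kb) and Ankrd55 (236.0 kb). Unlike Igf1, St8sia2 and Lclat1 each had 1 of their 3 places inside the gene, and Ankrd55 had 1 at 0.234 kb. That likeness is over 2 lists only and is a description.

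Igf2, the gene of the main fetal IGF ligand, is imprinted together with the noncoding gene H19 and is expressed from the paternal allele. Igf2 (gene 16002, minus strand, chr7:142650768-142666816) had no peak. The nearest lay 107.6 kb (XX list) and 107.7 kb (XY list) from the gene, a shared peak on the far side of H19 at chr7:142542991-142543290 that went to Mrpl23, the gene of a mitochondrial ribosomal protein. H19 itself (chr7:142575530-142578146) lay 32.4 kb from it in the XX list and 32.5 kb in the XY list. A promoter window here is the stretch from 250 bases before to 50 after a RefSeq start site, and it met a peak when they had a base in common. None of the 4 Igf2 promoter windows did.

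Egf had 1 XY-only peak at chr3:129725033-129725332, inside the gene (gene 13645, minus strand, chr3:129677574-129755322) and 30.1 kb from its nearer end. RefSeq lists 2 start sites for Egf that lie 30.2 kb apart, and the peak lay on the inner one: its centre was 96.5 bp before the start, and it covered 296 of the 300 bases of that promoter window. The outer start had no peak. In the XX list the nearest peak was 75.9 kb from Egf, at Gar1, a gene of ribosomal RNA processing, and Gar1 had that peak in both lists.

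The sequences of both Egf starts are shown because only the inner one met a peak. Each line gives the 250 bases before the start from the RefSeq promoter table (GRCm38.p6, the assembly of mm10), written 5′ to 3′ along the gene. Capitals mark GCGCATGCGC, which reads the same on each strand and resembles the site of the factor NRF1. It was chosen after the inner sequence had been read, because it occurs there more than once, so its repetition there is no result.
Egf inner start (chr3:129725087-129725336, minus strand): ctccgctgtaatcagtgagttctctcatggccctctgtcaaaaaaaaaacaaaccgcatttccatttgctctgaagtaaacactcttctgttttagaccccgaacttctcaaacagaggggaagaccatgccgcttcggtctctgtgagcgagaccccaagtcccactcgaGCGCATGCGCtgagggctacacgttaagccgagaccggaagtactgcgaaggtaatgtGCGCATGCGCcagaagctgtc
Egf outer start (chr3:129755323-129755572, minus strand): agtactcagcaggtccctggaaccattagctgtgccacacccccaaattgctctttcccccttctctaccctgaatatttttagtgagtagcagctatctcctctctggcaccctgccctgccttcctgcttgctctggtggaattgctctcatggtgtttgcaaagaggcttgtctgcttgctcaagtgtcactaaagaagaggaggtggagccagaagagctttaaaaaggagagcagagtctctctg

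The inner sequence held GCGCATGCGC 2 times, with centres 22 and 80 bp from the peak's centre, and the outer held none. In the 250 bases before the start, 257 of all 32851 RefSeq promoters (0.782%) held it at least 1 time and 10 (0.0304%) held it 2 or more times. Of the promoters with GCGCATGCGC, 48.2% met a peak of either list, against 17.9% of all promoters, which were not matched for base composition. Neither Egf sequence held the nuclear receptor hexamer AGGTCA on either strand.

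**Figure D2:**
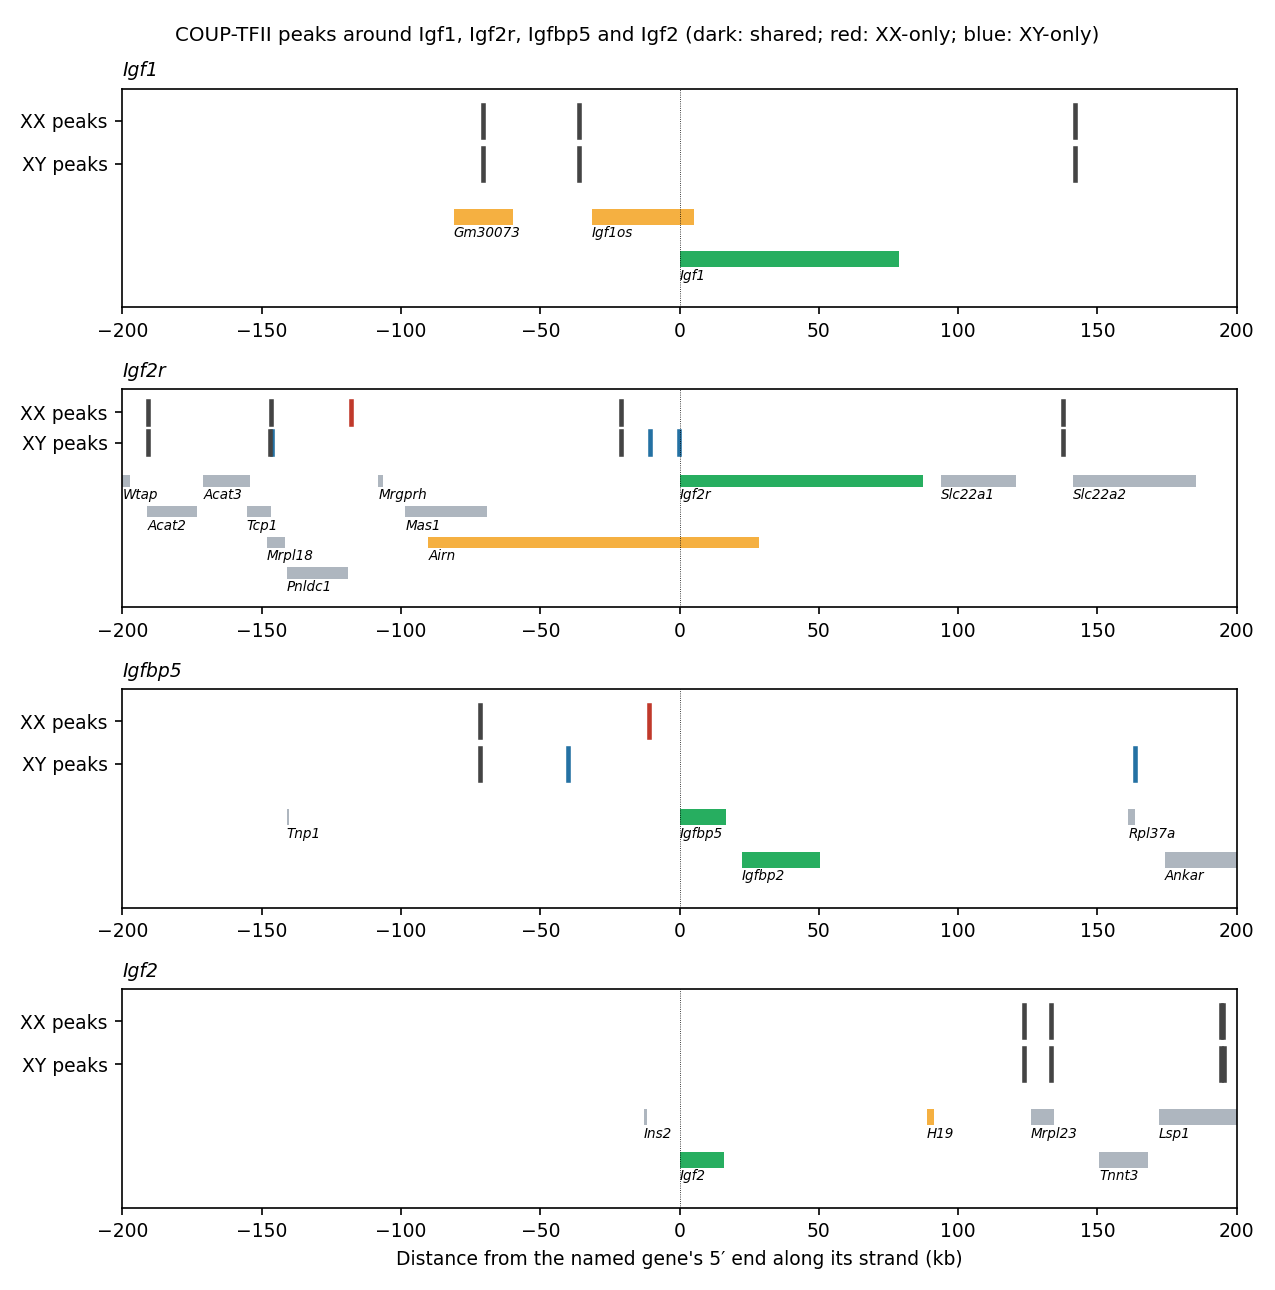
Peaks of the XX list and the XY list within 200 kb of the 5′ ends of Igf1, Igf2r, Igfbp5 and Igf2, drawn as ticks above the gene bodies (green: the 10 genes; grey: other protein-coding genes; orange: the noncoding genes Gm30073, Igf1os, Airn and H19 only), in kb along the strand of the named gene. The Igf1 ticks pair in both lists, 2 Igf2r ticks appear in the XY list alone, the red and blue ticks upstream of Igfbp5 do not pair, and the Igf2 stretch up to H19 is empty.

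Among the receptors, Igf1r had 1 shared peak close to its start. Igf1r (gene 16001, plus strand) spans chr7:67952257-68233668. Its peak lay at chr7:67950939-67951238 in the XX list and chr7:67950866-67951165 in the XY list, 1.17 kb and 1.24 kb before the gene. The 2 centres differed by 73 bp, more than the median of 33 bp, and the next protein-coding gene was 191.3 kb away. The XX peak ended 768 bp before the promoter window, so the peak was near the start and did not cover it. The 281.4 kb of gene body held no peak.

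Igf2r, expressed from the maternal allele in mouse, had the most XY-only peaks of the 10 genes. Igf2r (gene 16004, minus strand) spans chr17:12682406-12769706, and its 3 places all lay upstream. The shared peak, at chr17:12790421-12790720 in the XX list and chr17:12790431-12790730 in the XY list, was 20.9 kb from the gene, and its centres differed by 10 bp. The XY-only peaks lay at chr17:12780192-12780491, 10.6 kb upstream, and at chr17:12769731-12770030, 174.5 bp before the start. At least 2 XY-only peaks were found at 138 protein-coding genes (0.631%). That share is not matched for length or for the choice of the highest of 10 genes. The sequence nearest to Igf2r was 125 kb, against a median of 45 kb over all genes. Of the 3 Igf2r places the XX list held 1 and the XY list held all 3.

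These 3 places also lie inside Airn (chr17:12741311-12859884), the imprinted lncRNA gene that overlaps the first 28.4 kb of Igf2r in the opposite direction and silences Igf2r on the paternal allele. All 3 XY peaks and the 1 XX peak within Airn were those given to Igf2r. By position alone the peaks cannot be told apart as belonging to Igf2r or Airn, and Igf2r had 0 peaks when noncoding genes could take them. The next protein-coding gene, Mas1, lay 48.3 kb from the shared peak.

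The Igf2r start and the Igf1 start are shown together, the first with an XY-only peak on it and the second with none. Capitals mark AGGTCA, the hexamer of nuclear receptor sites, and its variant GGGTCA, on either strand (TGACCT and TGACCC in reverse).
Igf2r (chr17:12769707-12769956, minus strand): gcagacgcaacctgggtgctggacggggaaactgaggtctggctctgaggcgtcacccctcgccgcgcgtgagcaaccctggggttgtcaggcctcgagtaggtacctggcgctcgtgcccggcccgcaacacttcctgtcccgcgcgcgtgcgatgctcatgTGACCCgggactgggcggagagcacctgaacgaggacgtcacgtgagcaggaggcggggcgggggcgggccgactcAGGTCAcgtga
Igf1 (chr10:87860861-87861110, plus strand): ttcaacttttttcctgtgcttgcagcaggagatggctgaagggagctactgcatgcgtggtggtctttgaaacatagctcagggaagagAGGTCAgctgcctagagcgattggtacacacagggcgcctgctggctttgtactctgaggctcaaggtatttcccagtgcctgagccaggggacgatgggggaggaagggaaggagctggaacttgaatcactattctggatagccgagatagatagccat

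The Igf2r peak covered 226 of these bases. The TGACCC lay inside the peak, 90 bp from its centre, while the AGGTCA, 11 bp before the start, lay 13 bp beyond the edge of the peak. The Igf1 promoter held 1 AGGTCA, 161 bp before the start, and met no peak. Its start in the promoter table is 2846 bp inside the outer end of the gene body.

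Motifs were looked for only in the 250 bases before each start, not in the 50 bases after it. AGGTCA on either strand was present before 4 of the 15 starts of the 10 genes, those of Igf1, Igf1r and Igf2r and 1 of the 4 starts of Igf2, and of these only the Igf2r promoter window met a peak. Over all promoters 14.0% held it in these 250 bases. Among promoters that met a peak the share was 12.4%, and of promoters with the hexamer 15.8% met a peak, against 17.9% of all. Here too the promoters were not matched for base composition. With GGGTCA allowed, 5 of the 15 held a match, and 23.8% of all did. The direct repeat of AGGTCA spaced by 1 base was before none of the 15 starts, and 0.0335% of all promoters held it in the same 250 bases on either strand.

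Egfr (gene 13649, plus strand, chr11:16752203-16913907) had no peak within 100 kb. The nearest XX peak was 138.0 kb away, an XX-only peak inside Cnrip1. The nearest XY peak was 244.3 kb away and went to Sec61g, a gene of the protein translocation channel. Egfr was thus the farthest of the 10 genes from a peak in each list.

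None of the 4 genes of IGF-binding proteins had a shared peak. Igfbp5 and Igfbp2 lie next to each other on chromosome 1, with 5.59 kb between them. Igfbp5 (gene 16011, minus strand, chr1:72858065-72874865) had an XX-only peak at chr1:72885574-72885873, 10.9 kb upstream, and an XY-only peak at chr1:72914855-72915154, 40.1 kb upstream. Their centres were 29.3 kb apart, so the lists did not name the same place. A shared peak farther upstream, at chr1:72946302-72946601 in the XX list, lay 71.6 kb from Igfbp5 and 68.6 kb from Tnp1, a spermatid protein gene, and went to Tnp1 by that small difference. Igfbp2 (gene 16008, plus strand, chr1:72824480-72852474) had no peak of its own, and its nearest, at 33.2 kb in the XX list and 62.5 kb in the XY list, were those of Igfbp5.

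Igfbp4 (gene 16010, plus strand, chr11:99040005-99052655) had 1 XY-only peak at chr11:99041277-99041576. The peak lay inside the gene, 182.5 bp after the start in the promoter table, which is 1239 bp inside the outer end of the gene, and 17 bp of it met the promoter window. In the XX list the nearest peak was 15.2 kb away and went to Top2a, the gene of a DNA topoisomerase of dividing cells, which had that peak in both lists. Igfbp3 (gene 16009, minus strand, chr11:7206086-7215498) had none. Its nearest peak was shared and lay 45.8 kb away, inside Adcy1, an adenylyl cyclase gene.

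Igf1, Igf2r and Igfbp5 had most of their places away from the gene. Of 11 places, 7 were more than 10 kb outside the gene body, against 12.3% of all places with a gene. All 7 were at these 3 genes, so they are not independent. Among the 5 shared places 4 were that far, against 9.23% of all shared places. Inside a gene body were 2 (Egf and Igfbp4), against 69.4% of all, and 1 (Igf2r) was within 1 kb of a protein-coding gene end, against 53.1% of all places. Within 2.5 kb the count was 3, since the Igf1r peak (1.17 kb in the XX list) and the Igfbp4 peak (1.42 kb) lay just past 1 kb. The median distance to the gene body was 10.9 kb at these genes and 0 kb over all places with a gene. The length of sequence nearest to these genes, given above, was above the median of all genes at 9 of the 10, and its part in this difference was not tested. Of the 9 places outside a gene body 8 lay on the upstream side. Among all such places, 3063 had a gene of known strand, and 71.0% of these lay upstream. The exception was the third Igf1 place.

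**Figure D3:**
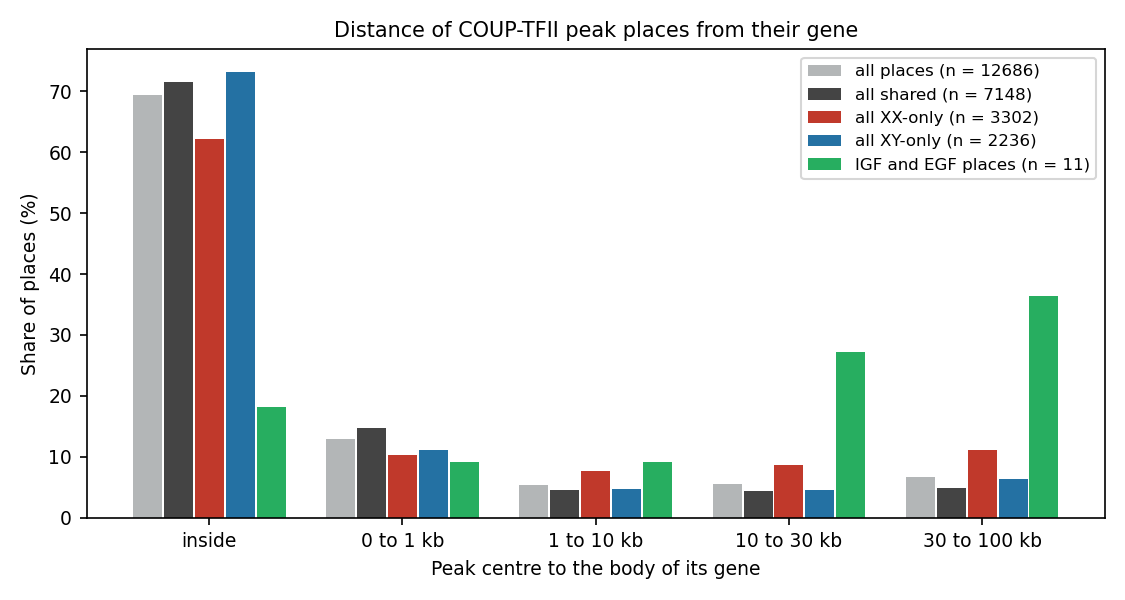
Share of places (%) by distance from the peak centre to the body of its gene, for all places with a gene, all shared, all XX-only and all XY-only places, and the 11 IGF and EGF places. The 11 places have 63.6% beyond 10 kb, and in each of the other groups most places are inside the gene.

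Promoter windows met a peak at 3 of the 11 places: those at Egf, Igf2r and Igfbp4. All 3 were XY-only, out of 5 XY-only places, and neither the 5 shared places nor the XX-only place met one. Over all places 33.5% met a promoter window, with 40.3% of shared (by their XX position), 31.2% of XY-only and 21.2% of XX-only places. The promoter table lacked usable starts for some protein-coding genes, Insr among them, while all 10 genes here had a window. Places at such genes could meet no window of their own, so these shares over all places may be too low. Egf and Igfbp4 had XY-only peaks and no other, as did 11.9% of all protein-coding genes with a peak. With 1 list per sex, a peak present in chromatin of 1 sex and a peak that passed the threshold in 1 list cannot be told apart.

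Among other genes of the pathways, 10 of 14 shared peaks in the IGF list lay at its 10 adaptor and kinase genes. Of these 10 peaks, 5 were at 1 gene, Pik3r1. In the EGF list 9 of 15 lay at its 6 adaptor genes. The sequence nearest to each gene ran from 12 kb (Shc1) to 287.5 kb (Pik3r1) at the former. At the latter it ran from 89 kb (Sos1) to 221.5 kb (Eps8), where the median over all genes was 45 kb. The part of this length in these counts was not tested. Of 26 further genes of the insulin and IGF axis, 14 had a peak, where 42.0% of all genes did. A shared peak was found at 10 (38.5%, against 28.2% of all genes). Pik3r1, the regulatory subunit of PI3-kinase, led with 5 shared peaks, of which 2 lay inside the gene and the farthest 72.8 kb outside. Stc1, of the stanniocalcin family that inhibits IGF-releasing proteases, and Igf2bp1, an Igf2 mRNA-binding protein gene, had 1 shared, 1 XX-only and 1 XY-only peak each. The XX-only (chr11:96006707-96007006) and XY-only (chr11:96007139-96007438) peaks of Igf2bp1 lay less than 1 kb apart, so they nearly coincide. The insulin receptor gene Insr and the protease gene Pappa2 had 1 shared and 1 XY-only peak each, all inside the gene, and the kinase gene Akt2 had 1 shared peak. By role, 6 of 10 adaptor and kinase genes had a shared peak, where 28.2% of all genes did. The 5 further genes listed as binding proteins (Igfbp1, Igfbp6, Igfbp7, Igfals and Igfbpl1) and both insulin genes had no peak in either list. The sequence nearest to Igfbp6 (9.5 kb), Igfals (11 kb), Igfbp1 (16 kb) and Igfbpl1 (18 kb) was shorter than the median of 45 kb. That of Igfbp7 (159 kb), Ins1 (201 kb) and Ins2 (107 kb) was longer. The part of this length in the absence of peaks was not tested.

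Of 28 further genes of the EGF family and its signalling, 16 had a peak, where 42.0% of all genes did. A shared peak was found at 11 (39.3%, against 28.2% of all genes). The adaptor genes Eps15, Grb2, Sos1 and Sos2, which couple the receptor to Ras or to endocytosis, had 2 shared peaks each and no other. Gab1, another adaptor gene, had 1 shared and 1 XX-only peak, and Errfi1, an inhibitor of EGFR, had 1 of each class. The XX-only (chr4:150854931-150855230) and XY-only (chr4:150855363-150855662) peaks of Errfi1 also lay less than 1 kb apart. By role, 5 of 6 adaptor genes and 1 of 10 ligand genes had a shared peak, where 28.2% of all genes did. That ligand gene was Hbegf, and Tgfa and Nrg1 had 1 XY-only peak each, all 3 named after their values were seen. All 5 feedback genes had a peak, against 42.0% of all protein-coding genes. The sequence nearest to these 5 genes ran from 94.5 kb at Cbl to 297.5 kb at Cblb, above the median of 45 kb over all genes. Their 11 places were 7 XX-only, 2 shared and 2 XY-only, where 27.3% of all places were XX-only, 55.3% shared and 17.5% XY-only. Each list is small, and these counts are descriptions without a test.

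**Figure D4:**
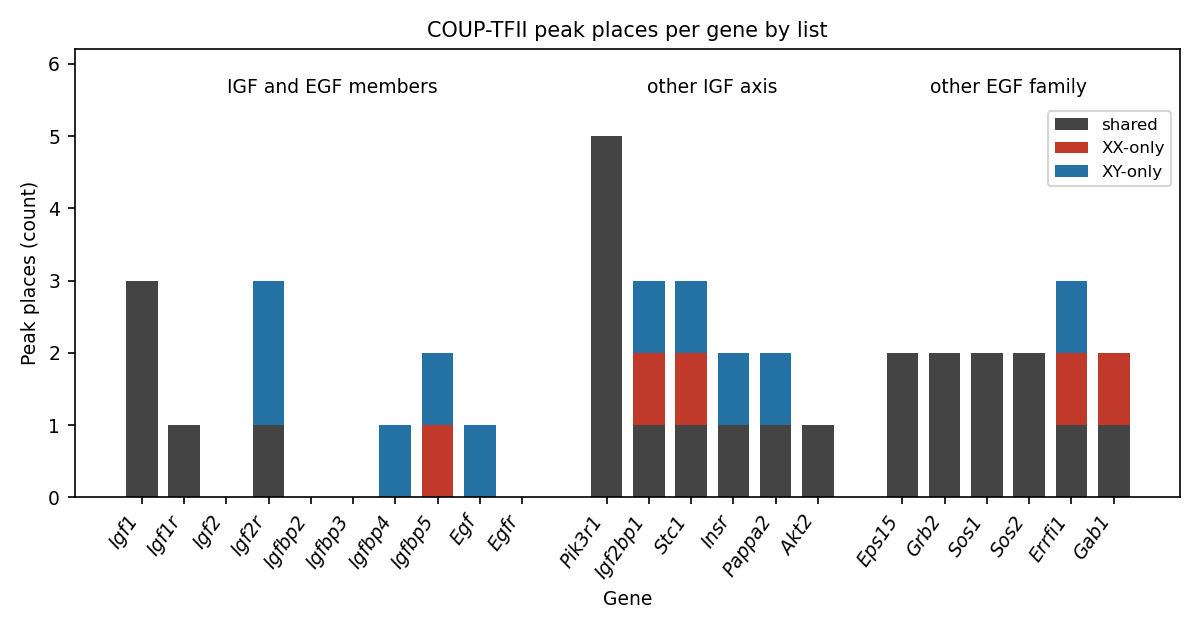
Number of peak places, stacked by class (shared, XX-only, XY-only), at each of the 10 genes and at 6 genes of each of the 2 wider lists. Those 6 were chosen as the genes with the most shared peaks, with ties by all places and then by symbol, so their bars do not represent their lists. The median was 1 place per gene in each of the 2 wider lists and over the 10 genes. Igf1 and Igf2r reach 3 places, Pik3r1 has 5 shared places, and Eps15, Grb2, Sos1 and Sos2 have 2 shared places each.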

How the data were processed

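COUP-TFII ChIP-seq peaks were taken from 2 deposited peak lists, for XX and for XY. The labels of both replicates of a sex name the same list, whose columns hold positions alone. The submitters' processing notes name mm10 and, with no roles, HOMER 4.10.3, bedtools 2.24.0, Bowtie 1.2, cutadapt and Picard. The sources used here do not give the peak caller's threshold or say whether replicates were pooled. Input and signal tracks were not analysed here. Genes, start sites and sequences came from RefSeq tables for GRCm38.p6, and all 10 genes matched by symbol. The gene nearest to a peak centre was found with pandas 2.3.3, with ties to the nearer gene end. The shared count was checked against bedtools 2.31.1, and assignment was tested on simulated positions. Stretches nearest to a gene were measured every 500 bp. Intervals are exact Clopper-Pearson and cover counting error only. The genes and lists were chosen with earlier results of these data known. Genes were named as all 10, up to 6 of each wider list by shared peaks (ties by all places, then symbol), neighbours that took a peak and the 3 genes most like Igf1. Alternatives changed the overlap, the distance limit, the kind of gene and the hexamer. No comparison was tested.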

Additional observations from a re-analysis of the deposited data

How the results depend on the processing

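The 5 shared places and the 3 genes with them were the same counts when sharing was defined by centres within 100 bp, by 50% of each peak or by a gap of up to 1 kb, within 500 kb of a gene, and by the nearest gene end. Within 10 kb of a gene there were 4 places, of which 1 was shared, at 1 gene. With genes of all kinds, where noncoding genes such as Airn take peaks, there were also 4 places, 1 shared, at 1 gene. Igf1 had 0 peaks in place of 3 under each of these 2 alternatives, and Igf2r had 1 within 10 kb and 0 with genes of all kinds. Within 500 kb there were 12 places, the added one an XX-only peak 246.9 kb from Igfbp3. With gene ends counted to 2.5 kb, 3 places lay at an end, against 1 within 1 kb. No paired analysis was possible because each sex has 1 peak list over its 2 replicates, and for the same reason no replicate could be left out. The lists carry no depth, so peaks under the threshold were not detectable.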
